A study of Rattus norvegicus with 35 samples.

Results

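The chemokines and chemokine receptors of the rat olfactory epithelium are described here, as they were measured by microarray in newborn, adult and old rats. Members were taken by name: every gene whose array name begins with Ccl, Cxcl, Ccr, Cxcr, Cx3c or Xc followed by a digit, an l or an r, ignoring case and an added "predicted", with the unrelated genes whose names begin with Ccrn and Ccrk left out. The rule gave 45 genes, 30 ligands and 15 receptors, among 35561 gene names. These 45 genes were measured by 51 transcripts (distinct probes of 60 bases) among 41012, and 6 genes had more than 1. A gene is represented by its transcript with the highest mean level over the 6 groups of rats.

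RNA from the olfactory epithelium of 27 Brown Norway rats was measured on 35 single-colour arrays, to ask how expression differs between individuals and with age. The newborn rats were 19 pups aged 3 to 5 days, of unknown sex, from 4 litters, with 4 pups in litter L1 and 5 in each of L2, L3 and L4, and only 1 side of the nose was measured per pup. The 4 adult rats were males aged 9 weeks and the 4 old rats were males aged 22 months, and each of these 8 rats had an array for nostril A and an array for nostril B, whose mean is used as the value of the rat. All 6 markers of mature olfactory sensory neurons, which define the tissue, were above background, and their summed level had a median of 382 in pups, 1501 in adult rats and 2293 in old rats, in multiples of the array median. How precise a value can be is limited by the number of arrays, and because the samples are whole tissue, fewer cells of a type and less RNA per cell cannot be told apart.

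Chemokines are small secreted proteins that direct the migration of cells, above all of white blood cells, along gradients toward their source. They act through receptors with G-protein coupling on the surface of the responding cell, and several receptors share ligands while several ligands share receptors. Some chemokines are made constantly, and place cells during development or in resting tissue, whereas others are switched on by inflammatory cytokines, microbial products or injury, which in the nose can reach the epithelium directly from the air.

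Levels are given as the log2 of the background-subtracted intensity divided by the median intensity of the array, so that 0 stands for the level of the middle transcript and the lowest possible value is -6.64. A transcript was counted as above background on an array when the scanner software marked it positive, significant and well above background, with a uniform and unsaturated spot. It was counted as expressed in a litter when this held on at least 3 arrays, and in adult or old rats when it held on at least 6 of the 8 arrays. A difference was called when limma gave an adjusted p under 0.01 over all 41012 transcripts and the transcript was expressed in at least 1 of the groups compared. The median intensity of an array ran from 42.1 to 87.8 in pups, from 82.4 to 163.6 in adult rats and from 37.2 to 55.3 in old rats. The same residual intensity near background therefore stands for a larger ratio on an old rat's array than on an adult rat's array, and for the faint members described below the numbers of arrays above background are given beside the values. A correction that adds an offset to every intensity (normexp) shrinks the differences of faint transcripts by its construction, and its values are given where it made a called age difference of the 14 members in the age figure smaller by more than 1.5 times, and for some other faint genes. Where none of the arrays of a group had a transcript well above background, its level there is only an upper bound. The difference is then written as at least a fold, from the mean of the brighter group and, for each array of the dimmer group, the higher of the transcript's own signal and the lowest signal of any transcript well above background. Different probes bind with different strength, so the brightest gene of a list is the one with the highest signal and need not have the most RNA.

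Of the 45 members, 21 were expressed in all 6 groups, 17 of them ligands. The receptors among them included Ccrl2, Cxcr3 and Cxcr4. A further 10 members were expressed in some groups and not in others, namely Ccl17, Ccl22, Ccl4, Ccl9, Ccr1, Ccr1l1, Ccr2, Ccr9, Cx3cr1 and Cxcl7. Another 9, Ccl24, Ccr6, Ccr7, Cxcl10, Cxcl11, Cxcl5, Cxcl9, Xcl1 and Xcr1, were above background on some array without being expressed in any group. The last 5, Ccl11, Ccl25, Ccr3, Ccr4 and Ccr8, were above background on none of the 35 arrays. By group, L1 expressed 27 members, L2 26, L3 and L4 25 each, adult rats 24 and old rats 29. These are 60% of the members in L1, 53.3% in adult rats and 64.4% in old rats, where the same shares of all transcripts were 66.7%, 63.6% and 62.6%.

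**Figure D1:**
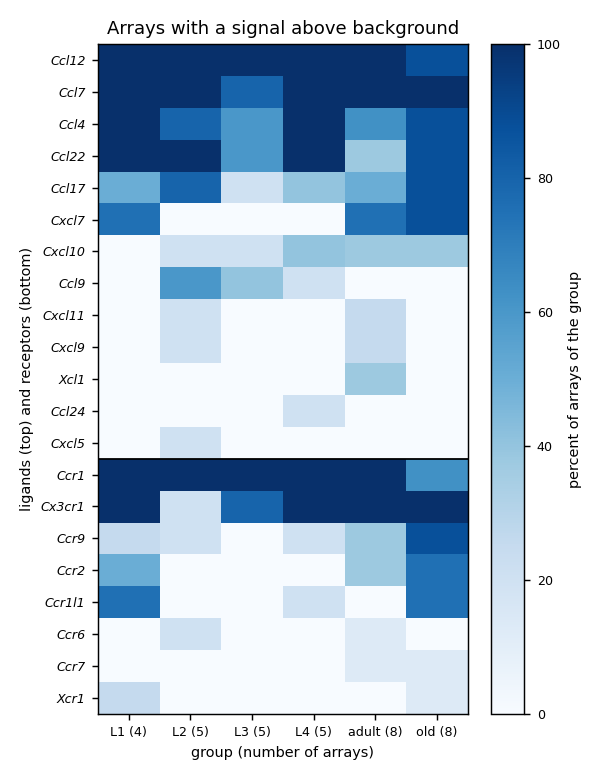
Percent of arrays above background for the member genes that were above background on some arrays and not on others (rows) in L1, L2, L3, L4, adult and old rats (columns). Ccr9 was above background on 7 of 8 old arrays and on a smaller share of the arrays of every other group.

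The numbers of members called are given beside the percent of all transcripts called, with no test of the difference. In adult against newborn rats 3 members were called higher and 7 lower, 6.67% and 15.6% of the 45, where 17.5% and 26.2% of all transcripts were called. In old against newborn rats 10 were called higher and 4 lower, 22.2% and 8.89%, beside 20.4% and 19.5% of all transcripts. In old against adult rats 5 were called higher, 11.1%, beside 19.4% of all transcripts, and limma called 0 lower, beside 10.2%. At an unadjusted p under 0.05, 1 member was lower in old than in adult rats, and the methods' t-test also called 0 lower. The numbers at that p in either direction were 17, 26 and 17 of 45 in these 3 comparisons, beside 24311, 23393 and 20116 of all 41012 transcripts. The comparisons share groups, so they are not independent of each other. The median difference of all transcripts was -0.10 in adult against newborn, 0.04 in old against newborn and 0.14 in old against adult rats. Over the 45 members it was 0.08, 0.92 and 0.74, which includes members near background, whose ratios depend on the array median as described above. Over the 21 members expressed in all groups it was -0.61, 0.38 and 0.58. For all transcripts expressed in all groups the medians were -0.16, 0.03 and 0.19. The larger called differences of members that involve adult rats are therefore also given relative to all transcripts. Other differences with adult rats stand against the same medians of -0.10 and 0.14.

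The arrays were not spread over slides and scan days independently of age. The 8 adult arrays were on 2 slides of their own, scanned on 2 days of their own and read with an earlier version of the scanner software, so that in comparisons with adult rats age and batch cannot be told apart. Old rats and litter L1 were scanned on the same day on different slides, and L2, L3 and L4 on other days. For old against newborn rats the difference between old rats and L1 alone is therefore given as the value within a scan day. In that comparison 5 members were called higher, Ccl28, Ccl5, Ccl7, Cx3cr1 and Cxcr3, and 3 lower, Ccr1, Cxcl12 and Cxcr4, beside 18.2% and 12.5% of all transcripts.

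**Figure D2:**
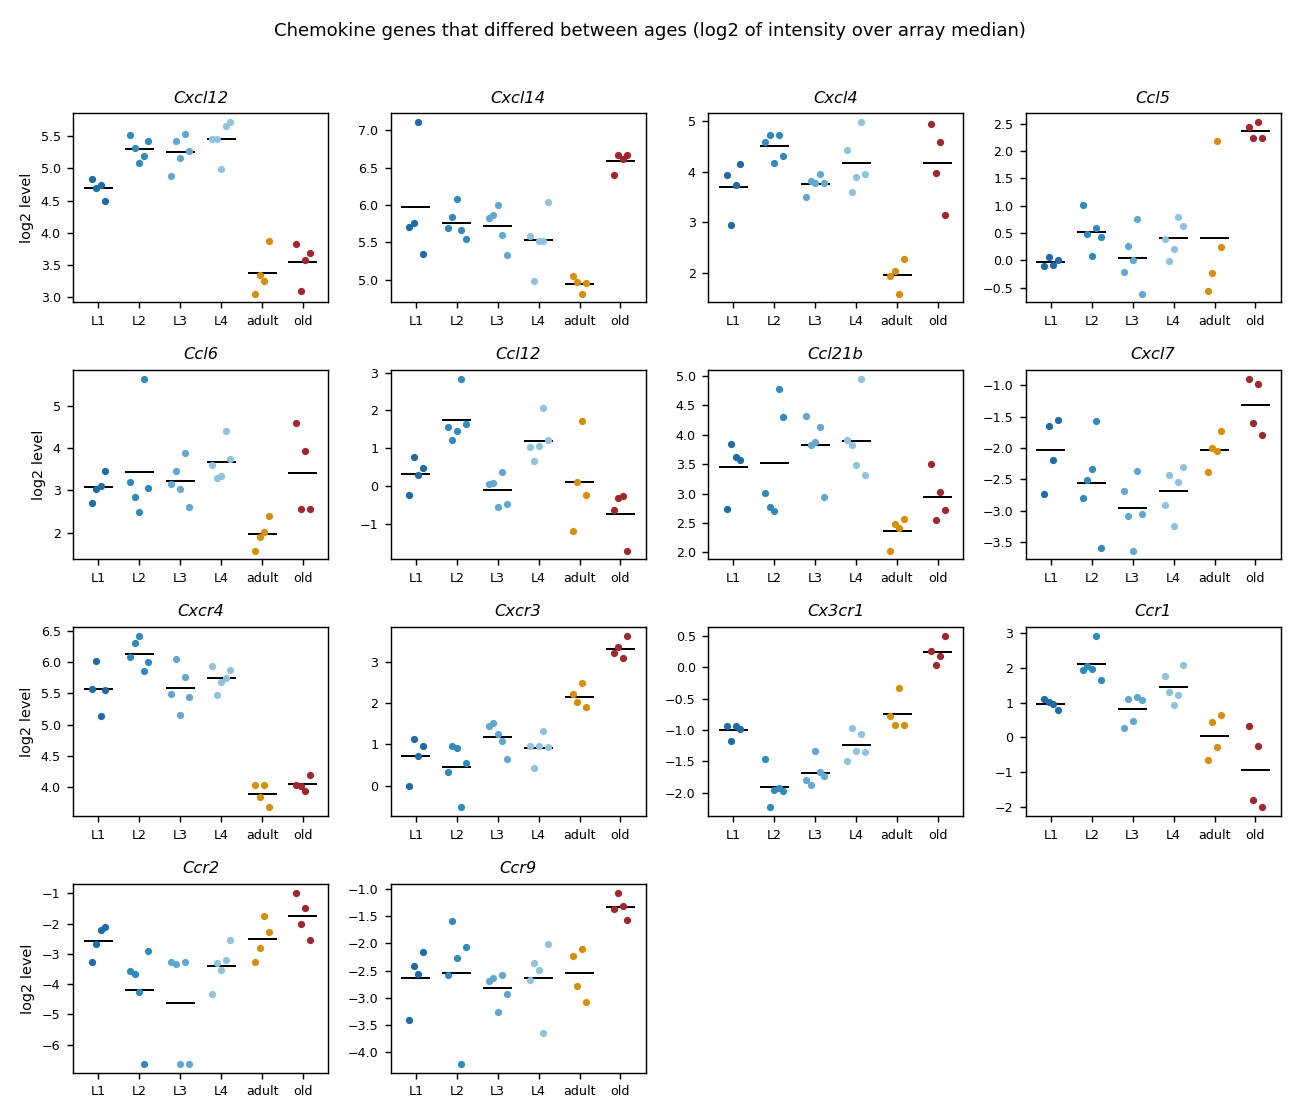
Log2 of intensity over array median (vertical axis) of the 14 member genes called with a change of at least 1 log2 unit in some age comparison, by group. Each point is a rat and each bar a group mean.

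Among the ligands, Cxcl12 was highest in newborn rats. Cxcl12 retains stem cells and guides migrating neurons and blood cells through the receptor Cxcr4. The litters L1, L2, L3 and L4 had means of 4.69, 5.31, 5.25 and 5.46. The adult rats had 3.05, 3.34, 3.25 and 3.87 and the old rats 3.82, 3.09, 3.57 and 3.68. Every pup, the lowest of them at 4.49, was above every adult and old rat. Cxcl12 was lower in adult than in newborn rats with a log2 difference of -1.80 (SE 0.14, 3.49-fold, adjusted p = 8.69e-11), which is -1.70 relative to all transcripts. In old against newborn rats the difference was -1.64 (SE 0.14, 3.11-fold, adjusted p = 7.15e-10), and within a scan day, against L1, it was -1.15 (adjusted p = 1.20e-05).

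A second transcript of Cxcl12 gave a different picture. Its litter means were 3.60, 4.67, 4.69 and 4.91 in L1 to L4, the adult rats had 3.71, 4.12, 3.82 and 4.42, and the old rats had 3.81, 3.29, 3.63 and 3.50. Here pups overlapped with both other ages. The difference of -0.45 in adult against newborn rats was not called (adjusted p = 0.0121), that of -0.91 in old against newborn rats was called (adjusted p = 1.30e-05), and within a scan day, against L1, it was -0.04 (adjusted p = 0.904). The first transcript minus the second was 1.09, 0.64, 0.56 and 0.55 for the litters L1 to L4, then -0.64 over the adult and -0.02 over the old rats. The groups thus differed in how the pair of transcripts stood to each other, a difference that was not tested.

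The receptor of Cxcl12 was also highest in newborn rats. Cxcr4 had litter means of 5.57, 6.13, 5.58 and 5.74 in L1 to L4. Its level was 4.04, 3.84, 4.04 and 3.68 in the adult rats and 4.04, 4.01, 3.95 and 4.19 in the old rats. The lowest pup, at 5.14, was above all 8 older rats, and adult and old rats overlapped. The difference was -1.86 in adult against newborn rats (SE 0.13, 3.62-fold, adjusted p = 2.35e-11, -1.75 relative to all transcripts). It was -1.71 in old against newborn rats (SE 0.13, 3.27-fold, adjusted p = 1.65e-10) and -1.52 within a scan day (adjusted p = 1.29e-07). Cmkor1, the other receptor that binds Cxcl12 and takes it up without G-protein signalling, was outside the name rule. It had group means of 2.94, 3.03 and 3.60 in newborn, adult and old rats and was higher in old than in newborn rats by 0.66 (adjusted p = 3.36e-05).

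Several marker lists were lower at the older ages together with Cxcl12 and Cxcr4, and their part in the result was not tested. Of 7 markers of blood endothelium, 4 were lower in adult and 4 in old than in newborn rats, while 1 was higher in old than in newborn rats and 2 in old than in adult rats. Their summed level was 69.4, 71.3, 77.8 and 92.7 in L1 to L4, 36.9, 35.6, 38.3 and 35.9 in the adult rats and 46.7, 34.6, 37.5 and 40.7 in the old rats, with Kdr the brightest and Tek above background on no array. Of 6 markers of fibroblasts and stroma, 5 were lower in adult rats and 6 in old rats than in pups, and the summed level had medians of 4833, 2820 and 518 in newborn, adult and old rats, with Col1a1 the brightest. All 4 markers of immature olfactory sensory neurons were lower than in pups at both older ages, with summed medians of 1799, 873 and 770 and Stmn2 the brightest.

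Ccl5, a ligand that draws T cells and monocytes, was highest in old rats. The litter means of Ccl5 were -0.03, 0.52, 0.04 and 0.40 in L1 to L4. The adult rats had -0.56, -0.23, 2.18 and 0.25 and the old rats 2.44, 2.24, 2.53 and 2.23. The 4 old rats were close together and above all other rats, with adult rat 15 next. The difference was 2.13 in old against newborn rats (SE 0.30, 4.38-fold, adjusted p = 1.58e-06), 2.39 within a scan day (adjusted p = 1.56e-05), and 1.95 in old against adult rats (SE 0.38, 3.87-fold, adjusted p = 0.000190, 1.82 relative to all transcripts). The call in old against adult rats was lost with only these groups in the fit and with the methods' t-test (adjusted p = 0.104).

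Of the receptors, Cxcr3 stood in the order newborn, adult, old without overlap. Cxcr3 is carried by activated T cells and natural killer cells and binds Cxcl9, Cxcl10 and Cxcl11. Its litter means were 0.70, 0.44, 1.19 and 0.92 in L1 to L4, with the highest pup at 1.52. The adult rats had 2.21, 2.02, 2.49 and 1.89 and the old rats 3.21, 3.35, 3.09 and 3.63. It was higher in adult than in newborn rats by 1.34 (SE 0.22, 2.53-fold, adjusted p = 1.07e-05, 1.44 relative to all transcripts). It was higher in old than in adult rats by 1.17 (SE 0.28, 2.25-fold, adjusted p = 0.00143, 1.03 relative to all transcripts). In old against newborn rats the difference was 2.51 (SE 0.22, 5.68-fold, adjusted p = 8.91e-10) and within a scan day 2.62 (adjusted p = 5.25e-08). With normexp the difference of old from adult rats was 0.77, still called. The 3 ligands of Cxcr3 were expressed in no group.

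Cx3cr1, the receptor for the membrane-bound chemokine Cx3cl1 and a receptor of macrophages and microglia, followed the same order. Its litter means were -1.01, -1.91, -1.68 and -1.24 in L1 to L4, and it was above background on 14 of the 19 newborn arrays. The adult rats had -0.78, -0.92, -0.34 and -0.93 and the old rats 0.26, 0.03, 0.18 and 0.50, all above background. No old rat overlapped with an adult rat, while the lowest adult rat and the highest pup were level at -0.93. The difference was 0.72 in adult against newborn rats (SE 0.13, adjusted p = 5.54e-05), 0.98 in old against adult rats (SE 0.17, 1.98-fold, adjusted p = 4.71e-05, 0.85 relative to all transcripts) and 1.70 in old against newborn rats (SE 0.13, 3.25-fold, adjusted p = 1.46e-10). Within a scan day it was 1.25 (adjusted p = 1.92e-06). With normexp these differences shrank to 0.24 in adult against newborn, 0.27 in old against adult and 0.51 in old against newborn rats and were still called. The first call was lost with litter means as replicates (adjusted p = 0.0164) and with the methods' t-test. Its ligand Cx3cl1 had group means of 6.97, 6.49 and 7.22 in newborn, adult and old rats and was not called in old against adult rats (log2 difference 0.74, adjusted p = 0.0691).

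Markers of T cells were also higher in old rats, and their part in the differences of Ccl5 and Cxcr3 was not tested. Of 11 T-cell markers on the array, of 12 listed, 6 were higher in old than in newborn rats, 4 were higher in old than in adult rats, and in adult against newborn rats limma called 0, with 4 higher and 1 lower at an unadjusted p under 0.05. Their summed level was 29.4, 41.0, 41.4 and 45.7 in L1 to L4, 28.3, 29.6, 50.6 and 38.2 in the adult rats and 69.3, 79.4, 74.4 and 70.5 in the old rats. Cd3g was the brightest, Cd28 and Trat1 were above background on no array, and Cd8b, a chain of the co-receptor of cytotoxic T cells, was higher in old than in newborn rats by 2.09 (adjusted p = 7.41e-08). All 7 markers of natural killer and cytotoxic cells were on the array, 3 were higher in adult and 3 in old than in newborn rats, limma called 0 in old against adult rats (0 also at an unadjusted p under 0.05), and their summed level had medians of 2.70, 6.09 and 8.23 with Nkg7 the brightest. Beside Cx3cr1, of 10 macrophage markers, of 11 listed, 4 were lower in adult than in newborn rats, where Cx3cr1 was higher. In old rats 5 were higher and 3 lower than in newborn rats, and 5 higher and 1 lower than in adult rats. Their summed level had medians of 391, 284 and 528, with Tyrobp the brightest.

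Ccr9, Ccr2, Cxcl7 and Ccr1l1 also had their highest group mean in old rats, but were faint. Ccr9, a receptor of T cells that home to the gut, had litter means of -2.64, -2.55, -2.83 and -2.64, adult values of -2.23, -2.79, -2.11 and -3.07 and old values of -1.37, -1.06, -1.32 and -1.57. It was above background on 3 of 19 newborn, 3 of 8 adult and 7 of 8 old arrays, and no old rat overlapped with a pup. It was called higher in old than in newborn rats (adjusted p = 0.00125). As its newborn values were mostly background, the fitted difference of 1.33 (SE 0.32) is no measured fold. Within a scan day the difference of 1.31 was not called (adjusted p = 0.0134). With normexp the difference of old from newborn rats was 0.21, still called. Its ligand Ccl25 was above background on no array.

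Ccr2, the receptor that brings monocytes out of the marrow toward Ccl2, had litter means of -2.57, -4.21, -4.63 and -3.38, adult values of -3.26, -2.79, -1.76 and -2.26 and old values of -0.98, -2.02, -1.48 and -2.53. It was above background on 2 of 19 newborn, 3 of 8 adult and 6 of 8 old arrays, and old rats overlapped with pups and with adult rats. As its newborn values were mostly background, the fitted difference of 1.95 in old against newborn rats (SE 0.60, adjusted p = 0.00878) is no measured fold. Its call was lost in 14 of the 27 fits that left out 1 rat. These were the fits without pups 9, 10, 11, 23, 31, 32, 33 or 34, adult rats 14 or 16, or old rats 17, 18, 19 or 20. Over all 27 fits the adjusted p ran from 0.00597 to 0.0465, the highest without old rat 17, where the difference was 1.69. Within a scan day it was 0.82 (adjusted p = 0.438), and with normexp 0.20, still called. The call was also lost with quantile normalization, with negative intensities set to 0.01 first, with the deposited matrix, with only the groups compared and without L2.

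Cxcl7, a ligand stored in platelets that attracts neutrophils, had litter means of -2.03, -2.56, -2.96 and -2.68. Its adult values were -2.38, -2.0, -2.05 and -1.72 and its old values -0.90, -1.59, -0.99 and -1.79. It was above background on 3 of 19 newborn, 6 of 8 adult and 7 of 8 old arrays, and the old rats overlapped with the highest pups. Cxcl7 was called higher in old than in newborn rats (adjusted p = 0.000532). As its newborn values were mostly background, the fitted difference of 1.24 (SE 0.28) is no measured fold. Within a scan day the difference of 0.71 was not called (adjusted p = 0.114). With normexp the difference of old from newborn rats was 0.25, still called. Ccr1l1, a gene next to Ccr1 and related to it, was above background on 4 of 19 newborn, 0 of 8 adult and 6 of 8 old arrays. It was at least 1.64-fold higher in old than in adult rats, which was not called (adjusted p = 0.105) but was called with normexp. Without pup 24 it was called in old against newborn rats (2.01, adjusted p = 0.00332), and with normexp the difference was 0.17.

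Ccl28 and Ccl27, ligands made by epithelial cells of mucosa and skin, were higher in old than in newborn rats by less than 1 log2 unit. Ccl28 had litter means of 2.46, 3.14, 3.1 and 2.84, adult values of 2.78, 2.85, 3.16 and 3.32 and old values of 3.82, 3.76, 3.95 and 3.88. The old rats were above all adult rats but overlapped with the highest pup, at 4.26. The difference was 0.97 in old against newborn rats (SE 0.22, adjusted p = 0.000759) and 1.39 within a scan day (adjusted p = 0.000332). For Ccl27 it was 0.38 in old against newborn rats (adjusted p = 0.00892) and 0.32 within a scan day, not called (adjusted p = 0.0984). The call in old against newborn rats was lost in 17 of the fits that left out 1 rat. Those fits were without pups 9, 10, 11, 22, 24, 25, 27, 29, 31 or 35, any of the adult rats, or old rats 18, 19 or 20, the last with the highest adjusted p (0.0588), and the call was also lost with normexp (adjusted p = 0.0140). Gpr2, the receptor for Ccl27 and Ccl28, was outside the name rule and was lower at both older ages than in newborn rats, with a log2 difference of -1.71 in adult (adjusted p = 8.35e-12) and -1.65 in old rats (adjusted p = 2.55e-11).

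Cxcl4, Cxcl14, Ccl6 and Ccl21b had their lowest group mean in adult rats, as did other ligands such as Cx3cl1 and the first transcript of Cxcl12. In old against adult rats Ccl6 (1.44, adjusted p = 0.0247) and Ccl21b (0.58, adjusted p = 0.287) were not called. Cxcl4, which platelets release on activation, had litter means of 3.70, 4.50, 3.77 and 4.17 in L1 to L4. The adult rats had 1.95, 2.05, 1.60 and 2.29 and the old rats 4.93, 3.98, 4.58 and 3.15. All 4 adult rats were below every pup and every old rat, whereas pups and old rats overlapped. The difference was -2.06 in adult against newborn rats (SE 0.24, 4.17-fold, adjusted p = 1.00e-07, -1.96 relative to all transcripts) and 2.19 in old against adult rats (SE 0.31, 4.56-fold, adjusted p = 4.23e-06, 2.05 relative to all transcripts), the second of which was not called with the methods' t-test (adjusted p = 0.0257). The 2 red-cell markers on the array, of 4 listed, moved the same way, and their part in the result was not tested. Both were lower in adult than in newborn rats and higher in old than in adult rats, with summed medians of 460, 69.6 and 245, individual values of 108, 63.4, 53.0 and 75.8 in the adult rats and 247, 381, 243 and 172 in the old rats, and Alas2 the brightest.

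Cxcl14, a ligand that epithelia make constantly, was lowest in adult and highest in old rats. The litter means were 5.98, 5.77, 5.72 and 5.53 in L1 to L4, the adult rats had 5.05, 4.96, 4.81 and 4.96, and the old rats had 6.41, 6.68, 6.62 and 6.67. Adult and old rats each varied little and did not overlap, and pups, from 4.98 to 7.11, overlapped with both. The difference was 1.65 in old against adult rats (SE 0.25, 3.13-fold, adjusted p = 1.19e-05, 1.51 relative to all transcripts). It was -0.80 in adult against newborn rats (SE 0.20, adjusted p = 0.00123) and 0.84 in old against newborn rats (SE 0.20, adjusted p = 0.000880), but 0.61 and not called within a scan day (adjusted p = 0.0555). With quantile normalization the difference of adult from newborn rats was -0.50 and not called (adjusted p = 0.0352). Of 2 gland markers, of 5 listed, 1 was lower in adult than in newborn rats and 1 higher in old than in adult rats, with summed medians of 5609, 3211 and 6066 in newborn, adult and old rats and Plunc the brightest. Of 4 horizontal basal cell markers, of 5 listed, Krt1-14 and Krt14 are an older and a newer name of 1 gene, and both enter the sum. For these 4 limma called 0 in all 3 comparisons, with 1 higher in old than in adult rats at an unadjusted p under 0.05. The summed medians were 307, 258 and 596, with Krt1-14 the brightest. Pup 11 was the highest rat for the horizontal basal cell markers, with a sum of 2094, and the highest for Cxcl14. Pups 9 and 30 came next for these markers, with 1413 and 892, but had 5.70 and 5.32 for Cxcl14. The part of both lists in the result was not tested.

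Ccl6, a ligand of myeloid cells, had litter means of 3.08, 3.44, 3.23 and 3.67 in L1 to L4. Its level was 1.58, 1.90, 2.03 and 2.40 in the adult rats and 4.59, 2.57, 3.93 and 2.57 in the old rats. The adult rats were below every pup, the lowest of which had 2.49, and old rats 17 and 19 were well above old rats 18 and 20. Ccl6 was lower in adult than in newborn rats with a log2 difference of -1.38 (SE 0.39, 2.60-fold, adjusted p = 0.00454, -1.27 relative to all transcripts). The call was lost without adult rat 13 (-1.25, adjusted p = 0.0246), adult rat 14 (-1.35, adjusted p = 0.0159) or adult rat 15 (-1.39, adjusted p = 0.0133), and with 75th percentile scaling, normexp or litter means as replicates. Without pup 24 Ccl6 was also called higher in old than in adult rats (1.44, adjusted p = 0.00243).

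Ccl21b, a ligand that guides lymphocytes and dendritic cells into lymphatic vessels and lymph nodes, had litter means of 3.44, 3.51, 3.82 and 3.90. Its adult values were 2.03, 2.48, 2.41 and 2.57 and its old values 3.51, 2.54, 3.02 and 2.72. Adult rats were below every pup, and old rats overlapped with both. It was lower in adult than in newborn rats with a log2 difference of -1.30 (SE 0.32, 2.46-fold, adjusted p = 0.00142, -1.19 relative to all transcripts). Of 3 markers of lymphatic endothelium on the array, of 4 listed, limma called 0 in each age comparison, with 1 lower at an unadjusted p under 0.05 in each. Their summed medians were 5.39, 3.80 and 4.44 in newborn, adult and old rats, with Pdpn the brightest and Prox1 above background on no array, and their part in the result was not tested.

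The receptor Ccr1 and the ligand Ccl12 were lower in old than in newborn rats. Ccr1, found on monocytes and granulocytes, had litter means of 0.97, 2.10, 0.82 and 1.46 in L1 to L4. The adult rats had -0.66, 0.43, -0.29 and 0.65, and the old rats 0.34, -1.80, -0.26 and -2.01, with 5 of the 8 old arrays above background. Only old rat 17 was above the lowest pup, at 0.28, and adult rats overlapped with the lower pups. The difference was -2.27 in old against newborn rats (SE 0.32, 4.82-fold, adjusted p = 1.91e-06) and -1.90 within a scan day (adjusted p = 0.000532). With normexp it was -0.998, still called, and with the methods' t-test the call was lost (adjusted p = 0.0483). It was -1.30 in adult against newborn rats (SE 0.32, 2.47-fold, adjusted p = 0.00119, -1.20 relative to all transcripts), a call lost without adult rat 13 (-1.07, adjusted p = 0.0138), and -0.68 with normexp. That call was also lost with slide or scan day as a block, with the methods' t-test, with litter means as replicates and without L2. Without old rat 17, Ccr1 was also called lower in old than in adult rats (-1.39, adjusted p = 0.00597), which takes the number of members called lower in that comparison from 0 to 1. The markers of neutrophils and granulocytes were lower together with Ccr1, 6 of 10 in adult and 5 in old than in newborn rats, with summed medians of 57.0, 14.9 and 24.3 in newborn, adult and old rats, and their part in the result was not tested.

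Ccl12, a monocyte attractant and a ligand of Ccr2, had litter means of 0.32, 1.74, -0.10 and 1.20 in L1 to L4. Its level was -1.18, 0.10, 1.73 and -0.23 in the adult rats and -0.63, -0.33, -0.25 and -1.71 in the old rats. Old rats overlapped with the lowest pups, and adult rat 15 was near the mean of L2. It was lower in old than in newborn rats with a log2 difference of -1.52 (SE 0.36, 2.86-fold, adjusted p = 0.000968), a call lost without old rat 20 (-1.19, adjusted p = 0.0134) and within a scan day (-1.05, adjusted p = 0.0726). With normexp it was -0.69, still called. The call was also lost with the methods' t-test, with litter means as replicates and without L2. Without adult rat 15, Ccl12 was called lower in adult than in newborn rats as well (-1.23, adjusted p = 0.00337).

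Ccl7, another monocyte attractant, was higher in adult than in newborn rats by 0.92 (adjusted p = 0.00248) and in old than in newborn rats by 0.92 (adjusted p = 0.00290). The first call was lost without adult rat 14 (0.87, adjusted p = 0.0122) or adult rat 15 (0.90, adjusted p = 0.0104), and also with litter means as replicates. The second was lost without old rat 17 (0.85, adjusted p = 0.0156) or old rat 19 (0.75, adjusted p = 0.0260). Within a scan day Ccl7 was higher in old rats by 1.29 (adjusted p = 0.00177). With normexp the differences of adult and of old from newborn rats were 0.34 and 0.33, still called. Ccl22, a ligand of Ccr4, was called only without adult rat 15. Its difference was then -1.27 in adult against newborn rats (adjusted p = 0.000618) and 1.92 in old against adult rats (adjusted p = 0.000126). With normexp and all rats these differences were -0.10 and 0.30, not called.

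Among the 4 litters, 8 members differed, 17.8% of the 45, beside 22.2% of all transcripts. Most pups of each litter were on a slide that held no other litter, and L1 was scanned on another day than the rest. Litter and slide therefore cannot be told apart for most pups. The exceptions were L2 pup 24 and L4 pup 34, each on a slide with an L3 pup. With all rats in the fit, the largest difference was in Ccl20, which attracts immature dendritic cells and B cells through Ccr6. Its litter means were -1.76, 2.42, 0.80 and 0.06 in L1 to L4, a distance of 4.18 between the highest and lowest (adjusted p = 0.000332). The L1 pups had -1.77, -2.02, -1.65 and -1.61, and the L2 pups 2.23, 1.99, 0.83, 5.75 and 1.31. The L3 pups had 1.49, 0.45, 0.83, 0.48 and 0.73, and the L4 pups 0.87, -0.08, -1.09, 1.13 and -0.51. No L1 pup overlapped with any other pup, and without L2 pup 24, the highest, the difference was 3.35 (adjusted p = 4.59e-05). In that fit Ccr1l1, whose newborn values were mostly background, was called with a larger distance of 4.03.

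The other members described here that differed among litters did so by less than 2 log2 units between the highest and lowest litter mean. The distance was 1.84 for Ccl12 (adjusted p = 0.00416), 1.76 for Ccl2 (adjusted p = 0.00586), 1.47 for Ccl7 (adjusted p = 0.00115) and 0.98 for Ccl27 (adjusted p = 2.05e-05). It was 0.90 for Cx3cr1 (adjusted p = 0.000297) and 0.76 for Cxcl12 (adjusted p = 0.00594). With slide as a block Ccl12, Ccl2 and Cxcl12 lost their calls, while Ccl20, Ccl27, Ccl7 and Cx3cr1 were still called. With normexp the distance was 2.15 for Ccl20, 0.94 for Ccl12 and 0.52 for Ccl7, all still called, while Ccl2 (adjusted p = 0.0141), Cx3cr1 (adjusted p = 0.0580) and Cxcl12 (adjusted p = 0.0615) were not called. L2 had the highest mean of Ccl12, Ccl2, Ccl7 and Ccl20 and the lowest of Ccl27 and Cx3cr1. Among the marker lists, the summed level in L1 to L4 was 335, 493, 351 and 409 for macrophages, 69.4, 97.7, 40.3 and 73.8 for neutrophils and granulocytes, and 17.4, 117, 43.1 and 37.2 for mast cells. L2 was highest for other lists too, among them inducing cytokines and factors of NF-kB signalling (257, 641, 312 and 317), red cells (504, 725, 317 and 444) and fibroblasts and stroma (3664, 6401, 4583 and 4763). In the 5 pups of L2 the sum for neutrophils and granulocytes was 90.8, 91.2, 40.6, 223 and 42.9, and that for mast cells 117, 127, 195, 27.7 and 119, the fourth of each being pup 24. The part of all these lists in the litter differences was not tested. Ccl12 lost its call without pup 24 (1.57, adjusted p = 0.0102), pup 28 (1.73, adjusted p = 0.0111) or pup 30 (1.75, adjusted p = 0.010). Ccl2 lost it without pup 9 (1.61, adjusted p = 0.0122), pup 12 (1.67, adjusted p = 0.0118), pup 21 (1.83, adjusted p = 0.0103) or pup 24 (1.28, adjusted p = 0.0159).

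Cxcl12 lost its call among litters without any pup of L1, with adjusted p from 0.0119 to 0.0337, and without pup 34 (0.71, adjusted p = 0.0111) or pup 35 (0.70, adjusted p = 0.0115). Its second transcript had a distance of 1.31 (adjusted p = 1.94e-05) and kept its call in all 27 fits, with adjusted p up to 0.000300. Some members were called among litters in such fits though not with all rats. Ccl3 was called without old rat 20 (adjusted p = 0.00962), pup 23 (adjusted p = 0.00607) or pup 25 (adjusted p = 0.00858). Ccl9 was called without pup 28 (adjusted p = 0.00332) or pup 30 (adjusted p = 0.00564), Ccr1l1 without pup 24 (adjusted p = 0.000623) or pup 30 (adjusted p = 0.00132), and Cxcr4 without pup 10 (adjusted p = 0.00440) or pup 27 (adjusted p = 0.00409). Each of these 4, and Ccr1, was also called under some other setting of the processing with all rats in. Up to 10 members were called among litters there, and the share of all transcripts is not given beside that number.

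Part of the variation in inducible chemokines lay in single animals, which were chosen after their values were seen. L2 pup 24 had the highest level of all 27 rats in 15 of the 31 members expressed in any group. The share of all transcripts in which pup 24 was highest is not given, so this number cannot be read as particular to the members. Cxcl2, a neutrophil attractant, had 4.83, 3.82, 1.70, 9.41 and 2.36 in the 5 pups of L2, the highest value being that of pup 24. In L1 it had -0.01, 1.20, 0.99 and 0.15, in L3 1.18, 1.47, 0.65, 0.65 and 0.19, and in L4 -0.34, -0.01, 0.33, 2.99 and -0.29, the fourth of these being pup 34. Pup 24 was thus far above the rest of its own litter. Every L2 pup was above all pups of the other litters except pup 34, which was above the lowest L2 pups. Cxcl2 was not called among litters (adjusted p = 0.0225). Ccl3, a macrophage product that attracts monocytes and lymphocytes, had 4.10, 2.58, 0.99, 7.86 and 1.32 in L2. Cxcl1, a further neutrophil attractant, had 1.82, 2.04, 1.29, 5.60 and 1.55.

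Ccrl2, a receptor-like protein without G-protein signalling that is induced in activated myeloid cells, had 2.0, 0.85, 0.20, 4.37 and 0.60 in the pups of L2. In pup 24 the summed level of 10 neutrophil and granulocyte markers, of 12 listed, was 223, where the median of all pups was 57.0. The summed level of 23 inducing cytokines and factors of NF-kB signalling, of 26 listed, was 1794 beside a median of 317. S100a9 and Nfkbia were the brightest genes of these lists, Il10 was above background on no array, and their part in the levels of pup 24 was not tested. Pups 24 and 34 were scanned on another day than the other pups of their litters. Each shared its slide with an L3 pup, in which Cxcl2 was 0.65 (beside pup 24) and 1.18 (beside pup 34) and Ccl20 was 0.83 and 1.49. The arrays of pup 24 and of L3 pup 28 on its slide had 24754 and 24484 transcripts above background, beside a newborn median of 26830.

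**Figure D3:**
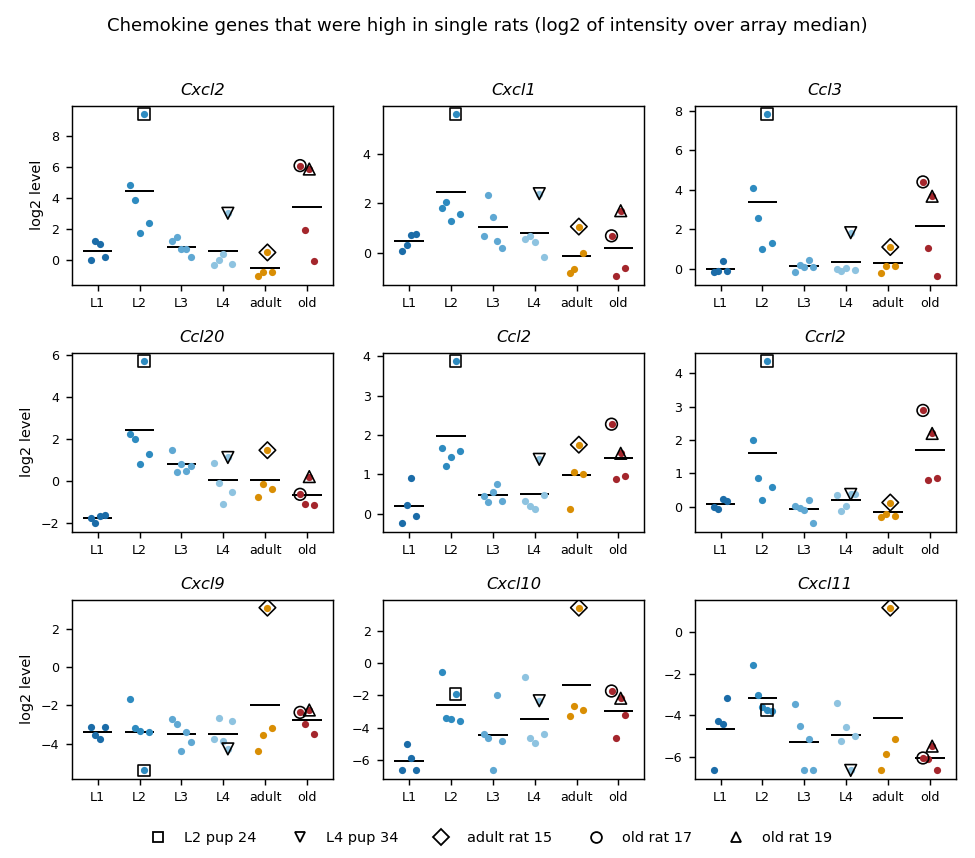
Log2 of intensity over array median (vertical axis) of 9 inducible members in every rat, by group, with L2 pup 24 (square), L4 pup 34 (triangle pointing down), adult rat 15 (diamond), old rat 17 (circle) and old rat 19 (triangle) marked. Adult rat 15 lies above all other rats for Cxcl9, Cxcl10 and Cxcl11, and pup 24 for Cxcl1, Cxcl2, Ccl2, Ccl3, Ccl20 and Ccrl2.

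In old rats the same ligands varied between animals and between the sides of the nose. Cxcl2 was 6.06 in rat 17, 1.89 in rat 18, 5.84 in rat 19 and -0.11 in rat 20, beside -1.09, -0.81, 0.46 and -0.79 in the adult rats. Rats 17 and 19 were high, and rat 20 was level with the adult rats. Over rats 17 to 20 the summed level of the neutrophil and granulocyte markers was 75.2, 16.4, 32.1 and 13.5, and that of the inducing cytokines and NF-kB genes 584, 382, 517 and 395, and their part in the levels of Cxcl2 was not tested. In rat 17 the nostrils had 3.69 (A) and 8.43 (B), in rat 19 7.57 (A) and 4.11 (B), and in rat 20 -0.13 and -0.09. Ccl3 was 2.32 and 6.47 in nostrils A and B of rat 17 and 5.32 and 2.02 in those of rat 19. Ccrl2 was 1.49 and 4.27 in rat 17 and 3.25 and 1.14 in rat 19. The high side was thus B in rat 17 and A in rat 19 for all 3 genes. Over the 8 adult and old rats the median absolute difference between sides was 0.50 for Cxcl2, 0.40 for Ccl3 and 0.33 for Ccrl2. Other members had similar medians, such as 0.50 for Cxcl4, 0.44 for Ccl6 and 0.38 for Ccl21b. The lowest of the 45 members were Cxcr3 and Cxcl14, at 0.07 each. What set Cxcl2, Ccl3 and Ccrl2 apart was thus the size of the difference in rats 17 and 19, not the median.

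None of these inducible members was called between old and adult rats with all rats in the fit. Cxcl2 had a difference of 3.98 (SE 1.29, adjusted p = 0.0151), and Ccrl2, with -0.29, -0.21, 0.13 and -0.26 in the adult rats and 2.88, 0.81, 2.20 and 0.86 in the old rats, had 1.84 (SE 0.58, adjusted p = 0.0121) without overlap. Ccl3 had a difference of 1.90 (adjusted p = 0.156). All groups share an estimate of the spread in the fit, and without pup 24, 10 members in place of 5 were called higher in old than in adult rats. The share of all transcripts called in that fit is not given, so this rise cannot be read as particular to the members. The added members were Ccl28 (0.82, adjusted p = 0.00437), Ccl6, Ccr9 (1.22, adjusted p = 0.00302), Ccrl2 (1.84, adjusted p = 0.000229) and Cxcl2 (3.98, adjusted p = 0.00271). Ccrl2 was then also called higher in old than in newborn rats (1.40, adjusted p = 0.000209). Leaving out old rat 20 also gave a call to Cxcl2 (5.16, adjusted p = 0.00215) and to Ccrl2 (2.12, adjusted p = 0.00846), and Ccrl2 was called without old rat 18 (2.14, adjusted p = 0.00834) or pup 23 (1.84, adjusted p = 0.00805) too.

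Adult rat 15 differed from the other adult rats in another group of ligands, those induced by interferon. Cxcl9 was 3.1 in rat 15 and -4.37, -3.56 and -3.16 in rats 13, 14 and 16. Cxcl10 was 3.44 beside -3.25, -2.63 and -2.91, and Cxcl11 was 1.18 beside -6.64, -5.85 and -5.11. Xcl1, a product of activated T and natural killer cells, was 0.72 beside -3.05, -3.07 and -2.24. Ccl19, a ligand of Ccr7, was 3.04 beside 0.14, 0.30 and 0.64. Of the 8 adult arrays, 2 were above background for Cxcl9, 3 for Cxcl10, 2 for Cxcl11 and 3 for Xcl1, so that most values of the other adult rats were not above background. Rat 15 stood above the other 3 in each of these genes, and it had the highest adult level in 18 of the 31 expressed members. That number, too, is given without the share of all transcripts. Both sides were alike: nostrils A and B of rat 15 had 3.09 and 3.1 for Cxcl9, 3.45 and 3.43 for Cxcl10, and 1.20 and 1.17 for Cxcl11. The summed level of the markers of natural killer and cytotoxic cells was 16.7 in rat 15 beside 4.65, 5.57 and 6.60, and its part in these levels was not tested. Rat 15 shared its slide with adult rat 16, which had none of these levels.

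Promoter sequences of RefSeq (GRCr8, 300 bases around the start of the gene) were available for 34 of the 45 members. Members without an entry included Ccl11, Ccl2, Ccl3, Ccl4, Ccl5, Ccr4, Ccr7, Ccr8, Ccr9 and Cxcl4. They were searched on both strands for the core letters bound by NF-kB, GGG followed by any 2 bases and TTTCC, which 1.53% of all 33469 promoters hold (512). Among the members 6 held it, namely Ccl20, Ccl9, Ccr3, Cxcl1, Cxcl2 and Cxcl5, and Ccr3 was above background on no array. The 3 shown, chosen after their values were seen, are those of the 6 that were both expressed in some group and highest in pup 24, with each match in capitals. A match is a description, not a site or a cause. The promoter of Cxcl1 lies at chr14:17479272-17479571 on the minus strand with 2 matches, that of Cxcl2 at chr14:17467206-17467505 on the minus strand with 2 matches, and that of Ccl20 at chr9:91836909-91837208 on the plus strand with 1 match.
Cxcl1: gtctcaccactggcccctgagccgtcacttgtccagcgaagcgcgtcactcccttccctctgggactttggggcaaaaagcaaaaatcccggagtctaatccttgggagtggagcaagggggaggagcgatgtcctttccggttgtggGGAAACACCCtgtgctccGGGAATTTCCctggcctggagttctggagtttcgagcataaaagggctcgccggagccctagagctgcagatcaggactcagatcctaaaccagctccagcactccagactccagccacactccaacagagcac
Cxcl2: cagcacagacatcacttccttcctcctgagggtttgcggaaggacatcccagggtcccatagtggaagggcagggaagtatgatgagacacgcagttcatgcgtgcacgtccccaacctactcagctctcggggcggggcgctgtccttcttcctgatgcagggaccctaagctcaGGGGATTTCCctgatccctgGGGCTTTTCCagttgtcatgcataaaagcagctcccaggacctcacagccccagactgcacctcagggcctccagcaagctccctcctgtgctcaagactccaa
Ccl20: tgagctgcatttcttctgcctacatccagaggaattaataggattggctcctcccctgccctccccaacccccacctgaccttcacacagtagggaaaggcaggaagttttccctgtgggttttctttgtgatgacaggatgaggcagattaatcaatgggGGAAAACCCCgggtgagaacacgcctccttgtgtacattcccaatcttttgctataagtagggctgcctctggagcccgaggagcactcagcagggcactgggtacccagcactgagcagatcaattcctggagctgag

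The letters GAAA, any 2 bases and GAAA, found in the response element of interferon-induced genes, were held by 3.92% of all promoters (1312), and among the members by 2 of 34, Cxcl10 and Ccl19, both highest in adult rat 15. Cxcl9 and Cxcl11 did not hold these letters within the 300 bases. The promoter of Cxcl10, at chr14:15988816-15989115 on the plus strand, is shown with its 1 match in capitals, because Cxcl10 set rat 15 apart from the other adult rats.
Cxcl10: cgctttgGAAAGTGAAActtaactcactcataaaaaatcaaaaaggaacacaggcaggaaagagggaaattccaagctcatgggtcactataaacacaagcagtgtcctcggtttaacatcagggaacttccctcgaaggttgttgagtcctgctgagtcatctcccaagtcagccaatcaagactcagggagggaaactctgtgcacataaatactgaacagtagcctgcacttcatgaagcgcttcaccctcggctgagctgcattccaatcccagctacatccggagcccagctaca

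Many members lie in clusters. On chromosome 10 of the array's annotation (build rn3), Ccl2, Ccl7, Ccl11 and Ccl12 lie at chr10:70271542-70336024 and Ccl5, Ccl9, Ccl6, Ccl3 and Ccl4 at chr10:71620459-71774696. In the first cluster Ccl2, Ccl7 and Ccl12 were all highest in pup 24 and all called among litters with L2 highest, while Ccl7 was higher and Ccl12 lower in old than in newborn rats. In the second Ccl3, Ccl4 and Ccl6 were highest in pup 24, Ccl5 was highest in old rats and Ccl6 had its lowest group mean in adult rats. On chromosome 14, Cxcl11, Cxcl10 and Cxcl9 lie at chr14:17252192-17288890, and all 3 were highest in adult rat 15. Next to them Cxcl2, Cxcl1, Cxcl4, Cxcl7 and Cxcl5 lie at chr14:18677236-18825719. Of these, Cxcl1 and Cxcl2 were highest in pup 24, and Cxcl4 was highest in pup 34, at 4.98. On chromosome 8, which holds 11 of the 15 receptors, Cx3cr1, Ccr9 and Ccr2 were higher and Ccr1 lower in old than in newborn rats.

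Genes of the chemokine system with other array names were listed separately. Of 14 listed, 12 were on the array, 2 of them being the members Cxcl4 and Cxcl7 under other names, and 4 were lower in adult than in newborn rats, 3 higher and 2 lower in old than in newborn rats, and 3 higher in old than in adult rats. Mif, a cytokine that also binds Cxcr4, was the brightest, with group means of 9.39, 7.64 and 8.94 in newborn, adult and old rats. It was higher in old than in adult rats by 1.30 (adjusted p = 8.76e-09). Blr1, the receptor of B cells for Cxcl13, was above background on 1 of 19 newborn, 1 of 8 adult and 6 of 8 old arrays and was called higher in old than in newborn rats (adjusted p = 0.000175). Its levels in the other groups were mostly background, and with normexp the difference was 0.26. Il8ra and Ccbp2 were above background on no array. Genes of this and the following lists were chosen after their values were seen, except the 3 called with the largest fitted change in each of old against newborn and old against adult rats.

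Of 26 listed genes of chemokine receptor signalling, 25 were on the array. Among them 3 were higher and 9 lower in adult than in newborn rats, 7 higher and 10 lower in old than in newborn rats, and 3 higher and 4 lower in old than in adult rats. Gnb1, a G-protein beta subunit, was the brightest, and Was was above background on no array. Gng2, a G-protein gamma subunit, was above background on 19 of 19 newborn, 6 of 8 adult and 0 of 8 old arrays. It was at least 7.56-fold lower in old than in newborn rats (adjusted p = 9.64e-09), and with normexp the log2 difference was -1.23. Of the 23 inducing cytokines and NF-kB genes, 2 were higher and 5 lower in adult than in newborn rats, 5 higher and 1 lower in old than in newborn rats, and 3 higher in old than in adult rats. Nfkbia, the inhibitor that NF-kB itself induces, was lower in adult than in newborn rats with a log2 difference of -1.24 (adjusted p = 0.000151) and higher in old than in adult rats by 1.41 (adjusted p = 0.000871). The summed level of this list had medians of 317, 224 and 456.

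Of the cell types that send or receive chemokines, the markers of neutrophils and marrow granulocytes are given above beside Ccr1, and 1 of the 10 was lower in old than in adult rats. Camp, a granule peptide, was above background on 19 newborn, 8 adult and 1 old array and was called lower in old than in newborn rats (adjusted p = 4.97e-09) and than in adult rats (adjusted p = 1.70e-05). As its old values were mostly background, only the values with normexp are given, -1.54 in old against newborn rats and -0.86 in old against adult rats, the last not called (adjusted p = 0.0161). Ngp, another granule protein, was above background on 18 newborn, 2 adult and 0 old arrays and was at least 3.95-fold lower in old than in newborn rats (adjusted p = 4.18e-09), with -0.81 by normexp. In old against adult rats Ibsp, a bone matrix protein, had a difference of -4.06 (adjusted p = 7.96e-12), and Col1a1, a collagen chain, -3.33 (adjusted p = 5.35e-10). Of 8 mast cell markers, of 9 listed, 7 were higher in adult and 7 in old than in newborn rats, 1 was lower in old than in newborn rats, and 1 was higher and 1 lower in old than in adult rats, with summed medians of 27.7, 191 and 141 and Mcpt2 the brightest. Of 6 B-cell markers, of 7 listed, 1 was higher in adult and 2 in old than in newborn rats and 1 in old than in adult rats, with summed medians of 28.9, 29.1 and 54.2 and Blnk the brightest.

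Of 4 dendritic cell markers, of 7 listed, 2 were lower in adult than in newborn rats and 1 was higher and 2 lower in old than in newborn rats, with Cd1d1 the brightest. Of 3 plasma cell markers, of 7 listed, 1 was higher in old than in adult rats, with Mzb1 the brightest. Of 4 osteoblast markers, of 5 listed, 1 was higher and 2 lower in old than in newborn rats and 1 higher and 1 lower in old than in adult rats, with Bglap the brightest. All 6 markers of mature olfactory sensory neurons were higher in adult and in old than in newborn rats, and 3 of them in old than in adult rats. Of 4 sustentacular cell markers, of 5 listed, 3 were higher in adult and 4 in old than in newborn rats and 2 in old than in adult rats.

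The remaining members were at or near background or did not pass the test. Ccl24, Cxcl5 and Xcr1 were above background on some array and expressed in no group. Ccl17, Ccl4 and Ccl9 were expressed in some groups and were not called in any age comparison. Ccl19 was expressed in all groups and was likewise not called. Ccr6 and Ccr7, the receptors of Ccl20 and of Ccl19 with Ccl21b, were above background on 2 arrays each.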

How the data were processed

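The 35 arrays of 27 rats were taken from the deposited scanner files, in which the authors' values are background-subtracted intensity per spot (Agilent Feature Extraction 9.5.1.1 for adult and 9.5.3.1 for newborn and old rats), with detection flags. The deposited matrix gives the authors' ratio of intensity to the array median, with each transcript also divided by a constant. Here the log2 of intensity over array median (over the 41012 transcripts, each counted once), floored at 0.01, was computed again, and repeated spots were averaged. Of the spot values, 3294 on 238 probes marked as outliers among repeats were left out. Values of nostrils A and B were averaged per rat. limma 3.58.1 (R 4.3.3, with data.table at version 1.17.8) was fitted over 6 groups with a variance trend, newborn being the mean of the 4 litters, with Benjamini-Hochberg adjustment over all 41012 transcripts. The procedure was tested on simulated data. No paired analysis was possible because the groups compared share no rat.

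Full values were given for members called with a change of at least 1 log2 unit, and other transcripts of a gene where their call differed. The values of 1 member that is counted among the 45 are not reported here. Members and lists were chosen with earlier results of these data known. Alternatives were other scalings (75th percentile, quantile, normexp with offset 50), floors, flags, filters, the deposited matrix, blocks for rat, slide and scan day, litter means as replicates, only the groups compared, no trend, a fold of at least 5, adjusted p alone, the methods' t-test, and each rat left out. Newborn rats without L2 were added after seeing the data.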

Additional observations from a re-analysis of the deposited data

Results flagged for a closer look

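For each member expressed in a group of 4 or 5 rats, the highest or lowest rat was compared with its nearest neighbour, as a share of the whole range of the group. Of 156 groups tested, 11 had a rat far from the others, where chance alone gives about 1 in 20, or 7.8. All 11 were the highest of their group, and 9 of them came from pups 24 and 34.

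L2 pup 24 stood apart in 5 genes. Its level was 2.84 for Ccl12 (nearest 1.65), 3.88 for Ccl2 (nearest 1.67), 5.75 for Ccl20 (nearest 2.23), 5.63 for Ccl6 (nearest 3.19) and 5.60 for Cxcl1 (nearest 2.04). L4 pup 34 stood apart in 4 genes, at 1.38 for Ccl2 (nearest 0.46), 1.82 for Ccl3 (nearest 0.02), 0.11 for Ccl7 (nearest -0.59) and 2.99 for Cxcl2 (nearest 0.33). In L1, pup 12 had 4.91 for Ccl27 (nearest 4.35) and pup 11 had 0.37 for Ccl3 (nearest -0.13).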

How the results depend on the processing

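Under 20 other settings, 115 of 130 counts of called members stayed within 1.5 times the reported count and 15 moved. Of 783 log2 differences of named genes, 726 kept their side of the threshold, 52 lost the call and 5 gained it. The 726 include differences that were called neither as reported nor under the other setting, so the losses fall on fewer than 783. The gained calls were 4 for Ccr9 and 1 for Ccl6, all in old against adult rats. No direction of a called gene reversed. Requiring a fold of at least 5 gave 0 members higher and 0 lower in adult against newborn rats, 1 higher and 0 lower in old against newborn rats, 0 higher in old against adult rats and 1 among litters. In adult against newborn rats, normexp gave 5 higher and litter means as replicates gave 1. In old against newborn rats, only transcripts expressed in each of the 6 groups gave 6 higher, L1 against old rats within a scan day gave 5 higher, and the methods' t-test gave 2 lower. In old against adult rats, rat as a block gave 8 higher, litter means gave 9 and the methods' t-test gave 3. Among litters, slide as a block gave 4, Ccl20, Ccl27, Ccl7 and Cx3cr1. The cause was not tested. Newborn rats without L2, chosen after seeing the data, gave 12 higher in old rats.

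The Ccr1 log2 difference, adult against newborn, lost its call with slide as a block (adjusted p = 0.0103), scan day as a block (0.0166), litter means (0.0625), the methods' t-test (0.0295) and without L2 (0.0128). The Ccl5 log2 difference, old against adult, lost it with only the groups compared (0.0259) and with the methods' t-test (0.104), which also left the Cxcl4 log2 difference, old against adult, uncalled (0.0257). The Cx3cr1 log2 difference, adult against newborn, was also lost with the methods' t-test (0.0110). The Ccl6 log2 difference, adult against newborn, was lost with the 75th percentile (0.0123), normexp (0.0126) and litter means (0.0153). The Ccl12 log2 difference, old against newborn, was lost with litter means (0.0602), the methods' t-test (0.0209) and without L2 (0.0110). The Ccr2 log2 difference, old against newborn, was lost with quantile normalization (0.0106), negative intensities set to 0.01 first (0.0644), the deposited matrix (0.0252), only the groups compared (0.0140) and without L2 (0.0136).

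With each of the 27 rats left out in turn, 187 of 189 counts stayed within 1.5 times and 2 moved. The counts ran from 2 to 3 higher and 5 to 8 lower in adult against newborn rats, 7 to 11 higher and 3 to 4 lower in old against newborn rats, 5 to 10 higher and 0 to 1 lower in old against adult rats, and 6 to 9 among litters. These counts, and those under the other settings, are given without the percent of all transcripts called in the same fit. Their changes therefore cannot be read as particular to the members.

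The share of all called transcripts that were higher in adult than in newborn rats was 40.0% as reported, 49.4% with the 75th percentile, 50.8% with quantile and 52.5% with normexp scaling, and in old against adult rats 65.4%, 57.7%, 50.7% and 49.9%.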
